A study of Homo sapiens with 4 samples.

Results

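WNT genes encode secreted, lipid-modified signalling proteins, and 10 of them (WNT3, WNT3A, WNT4, WNT5A, WNT5B, WNT6, WNT7A, WNT7B, WNT10A and WNT10B) were measured here in HaCaT, an immortalised human keratinocyte line. The genes were taken by their symbols, 10 of the 44591 rows that each replicate holds, 10 of the 19233 protein-coding rows and 10 of the 19 WNT genes. RNA-seq was carried out on total RNA of 4 biological replicates of untreated cells, 1 condition with no comparison group. According to the labels all 4 cultures grew at 37 °C and 5% CO2 in Dulbecco's modified Eagle medium with 12% fetal bovine serum, so each replicate is the same line without a transgene, inhibitor or irradiation. The comparisons that this design allows are between genes and between replicates.

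A WNT protein is acylated by the enzyme PORCN, carried to the cell surface by WLS and bound by a Frizzled receptor. With the co-receptors LRP5 or LRP6 this holds back the complex that marks beta-catenin for degradation, while other receptors such as ROR2 and RYK serve branches that steer cell polarity and calcium. In skin, WNT signals from keratinocytes and from the dermis are known for their part in hair follicles, teeth, nails and the renewal of the basal layer.

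The acylated serine is shared by the whole family, and the 24 coding bases around it are shown because they mark what the 10 ligands have in common. The bases were read from transcripts of GENCODE release 29, 5′ to 3′ on the coding strand, and the capitals mark the codon of the serine.
WNT3: tgccacgggctgTCGggcagctgt
WNT3A: tgccacgggctgTCGggcagctgc
WNT4: tgccacggggtgTCAggctcctgt
WNT5A: tgccatggggtgTCCggctcatgt
WNT5B: tgccacggcgtcTCGgggtcctgc
WNT6: tgccacgggctgTCGggatcatgc
WNT7A: tgccacggcgtgTCAggctcgtgc
WNT7B: tgccacggcgtgTCTggctcctgc
WNT10A: tgccacggcacgTCAggcagctgc
WNT10B: tgtcatggcacaTCAggcagctgc
In this stretch 12 of the 24 positions were identical in all 10 genes, and 4 different serine codons were used. The site of WNT10A lies at chr2:218892807-218892830 (GRCh38, plus strand), in exon 4 of 4, and encodes serine 268. That of WNT7A lies at chr3:13819367-13819390 (GRCh38, minus strand), in exon 4 of 4, and encodes serine 206. That of WNT3A lies at chr1:228059019-228059042 (GRCh38, plus strand), in exon 4 of 4, and encodes serine 209. Pairs of genes were identical at 13 to 23 of the 24 bases, the most alike being WNT3 and WNT3A. The annotated proteins have 349 to 417 residues and 24 to 25 cysteines. The longest run of bases shared by a pair of the transcripts was 15 to 35 over the 45 pairs, and 0 pairs shared 50 or more, so that a read of 50 bases from one of these transcripts could not match another of them without a mismatch. The read length is not given in the sources used here.

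Replicate 1 stood apart from the other libraries. Total counts were 73082279 in replicate 1 and 17056035 to 19745170 in the others, of which 76.1% and 95.3% to 96.4% fell on protein-coding genes, and the 10 ligands together had 15592, 4658, 4719 and 8062 counts. Between replicates, 0.0493% to 0.608% of the genes with a mean TPM above 1 had the same count, so no pair of replicates held the same values. Levels are given as TPM, the count per kilobase of gene scaled to 1000000 over the protein-coding genes of a replicate. TPM can be set side by side between genes only as far as the deposited gene lengths hold. All 12 keratinocyte markers, among them KRT5 and KRT14, had a mean TPM above 1, with a summed TPM of 11832 to 29579. Of the markers of other cells, 3 of 10 passed that limit for fibroblasts (summed TPM 5.61 to 15.6), 2 of 7 for melanocytes (3.97 to 9.16), 0 of 6 for endothelium (0.956 to 2.36) and 2 of 8 for leukocytes (11.4 to 52.0). TYR, PECAM1, KDR, TEK, CD207 and CD1A had 0 counts in every replicate.

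WNT10A stood above the other 9 ligands in each of the 4 replicates, followed in the mean by WNT7A, WNT7B and WNT4. WNT5A and WNT3A were the lowest, with 8 to 126 and 1 to 5 counts, so that WNT3A was near the limit of detection. With detection set at a mean TPM above 1, 8 of the 10 ligands were detected, against 63.3% of all protein-coding genes. The 2 others were WNT5A and WNT3A. More than 3 counts in every replicate were found for 9 of 10, all but WNT3A, against 65.7% of protein-coding genes. In bulk RNA a low level in every cell and a high level in few cells cannot be told apart.

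**Figure D1:**
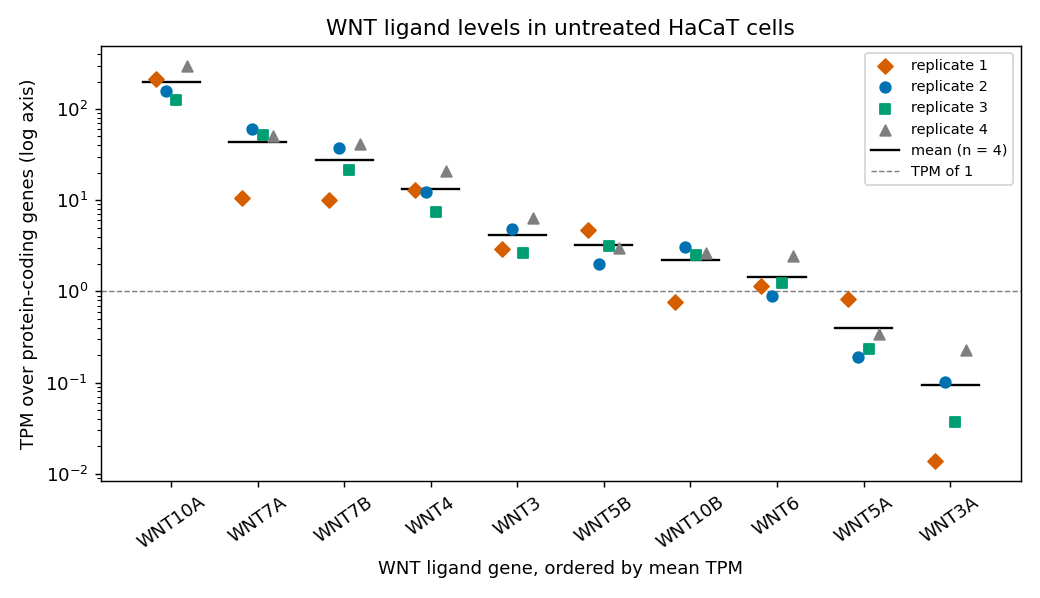
TPM of the 10 WNT ligands on a log axis, one marker per replicate and a bar at the mean of the 4 replicates, with the dashed line at a TPM of 1. WNT10A lies between 126 and 299 and above every other ligand, replicate 1 is low for WNT7A and WNT7B, and WNT5A and WNT3A lie below the line in all replicates.

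WNT10A, the ligand whose loss in people causes ectodermal dysplasia with defects of teeth, nails, hair and palms, had a TPM of 212, 156, 126 and 299 in replicates 1 to 4. All 4 values exceeded those of every other member, and the highest replicate was 2.38 times the lowest. The mean was 198 ± 75.9 (SD, n = 4), at percentile 95.9 of the protein-coding genes with 782 genes above it, and without replicate 1 it was 193 ± 92.3 (SD, n = 3). Counts behind these values were 12232, 2468, 2680 and 5283. In the files the gene spans chr2:219745255-219758651 on the plus strand (hg19).

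The stretch before the start of WNT10A is shown beside that of WNT3A because these are the ligands with the highest and the lowest level. Each run holds the 250 bases before the RefSeq start (GRCh38.p14, plus strand), and the capitals mark the dinucleotide CG. That of WNT10A is chr2:218880602-218880851 and that of WNT3A is chr1:228006748-228006997.
WNT10A: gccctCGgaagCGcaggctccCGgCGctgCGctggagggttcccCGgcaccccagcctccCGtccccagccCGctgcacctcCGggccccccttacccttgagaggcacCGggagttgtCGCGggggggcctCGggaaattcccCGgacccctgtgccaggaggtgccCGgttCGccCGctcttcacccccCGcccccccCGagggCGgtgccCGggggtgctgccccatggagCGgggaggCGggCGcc
WNT3A: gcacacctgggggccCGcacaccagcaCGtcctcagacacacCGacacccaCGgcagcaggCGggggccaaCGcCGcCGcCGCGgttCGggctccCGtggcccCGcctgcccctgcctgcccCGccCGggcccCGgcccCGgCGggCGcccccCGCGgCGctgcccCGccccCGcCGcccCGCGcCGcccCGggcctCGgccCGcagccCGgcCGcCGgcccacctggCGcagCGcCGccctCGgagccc
WNT10A had 24 CG and a GC content of 77.6%. The same stretch of WNT3A, the least abundant ligand, had 38 CG and a GC content of 86.0%. The median over 35116 promoters was 11 CG and 58.0% GC, so both lay above it. RefSeq starts were found for 8 of the 10 ligands, 10 starts in all, and held 7 to 40 CG, with 8 of 10 at or above the median. The motif CTTTGAT, a form of the sequence bound by TCF and LEF factors, was searched on both strands and was found in 0 of these 10 starts and in 2.26% of all promoters.

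WNT7A and WNT7B, paralogs that the epidermis is known to make, were the second and the third ligand by mean level with the deposited gene lengths, and the third and the second with the union of annotated exons as length. WNT7A had a TPM of 10.6, 60.6, 52.0 and 50.8 in replicates 1 to 4. Replicate 1 was below the other 3, which lay close together at 54.5 ± 5.31 (SD, n = 3), 5.13 times replicate 1. Over all 4 the mean was 43.5 ± 22.3 (SD, n = 4). WNT7B had a TPM of 10.2, 37.3, 21.3 and 41.7, again lowest in replicate 1, and the other 3 averaged 3.29 times that replicate. Its mean was 27.6 ± 14.6 (SD, n = 4). WNT7A spans chr3:13860082-13921618 and WNT7B chr22:46316246-46373008, both on the minus strand (hg19).

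WNT4, a ligand best known from kidney and female reproductive tract development, and WNT3, a ligand of the beta-catenin branch, came next in the order. WNT4 had a TPM of 13.0, 12.4, 7.38 and 20.8 and a mean of 13.4 ± 5.54 (SD, n = 4). In replicate 1 it ranked second, above WNT7A and WNT7B, and in the other 3 it ranked below both. WNT3 had a TPM of 2.88, 4.89, 2.62 and 6.36 and a mean of 4.19 ± 1.77 (SD, n = 4). Replicate 4 was highest for both. WNT4 lies on the minus strand at chr1:22443798-22469519 and WNT3 on the minus strand at chr17:44839872-44896126 (hg19).

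Levels of a few TPM were measured for WNT5B, WNT10B and WNT6. WNT5B, a relative of WNT5A that acts mainly outside the beta-catenin branch, had a TPM of 4.72, 2.02, 3.13 and 2.96, mean 3.21 ± 1.12 (SD, n = 4), and was the one detected ligand whose highest value was in replicate 1. WNT10B, which is known from hair follicles and as a brake on fat cell formation, had a TPM of 0.764, 3.05, 2.54 and 2.61. Replicate 1 stood below the other 3 by a factor of 3.57, and the mean was 2.24 ± 1.01 (SD, n = 4). The counts of WNT10B were nearly the same in all replicates, 44, 48, 54 and 46, although replicate 1 was sequenced more deeply. WNT6 had a TPM of 1.14, 0.885, 1.24 and 2.45 and a mean of 1.43 ± 0.696 (SD, n = 4), from 10 to 47 counts. These genes lie at chr12:1726222-1756378 (WNT5B, plus strand), chr12:49359123-49365641 (WNT10B, minus strand) and chr2:219724546-219738954 (WNT6, plus strand) in hg19.

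WNT5A and WNT3A, the textbook ligands of the polarity branch and of the beta-catenin branch, were the lowest of the 10. WNT5A had a TPM of 0.830, 0.193, 0.232 and 0.344, mean 0.400 ± 0.294 (SD, n = 4), with 126 counts in replicate 1 and 8 to 16 in the others, and the mean without replicate 1 was 0.256. For WNT3A the counts were 1, 2, 1 and 5. Taking 3 counts as the floor, its floor was a TPM of 0.0415, 0.152, 0.112 and 0.136, so that WNT3A exceeded it in replicate 4 alone, with a TPM of 0.226; its mean was 0.0946 over all 4 and 0.0508 without that replicate. Whether the gene is expressed was not detectable at this depth in replicates 1 to 3. WNT5A lies at chr3:55499743-55521670 (minus strand) and WNT3A at chr1:228194723-228248972 (plus strand) in hg19.

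The order of the means was WNT10A, WNT7A, WNT7B, WNT4, WNT3, WNT5B, WNT10B, WNT6, WNT5A and WNT3A, and each of the 9 neighbouring pairs was compared within replicates as a difference of log2(TPM + 1), a scale that understates differences between low genes. The order was taken from these same values, so the direction of each mean difference was largely set in advance. The differences describe the spread and do not test the order. In 5 of the 9 pairs the mean difference exceeded its SD over replicates. WNT10A was above WNT7A by 2.33 ± 1.37 (SD, n = 4), and by 1.26 to 4.20 in the single replicates. WNT7A was above WNT7B by 0.57 ± 0.53 with the deposited lengths and below it by a difference of -0.44 with the exon union, and WNT7B was above WNT4 by 0.89 ± 0.85, the latter in 3 of 4 replicates with the opposite order in replicate 1. WNT4 was above WNT3 by 1.45 ± 0.32 and WNT6 was above WNT5A by 0.78 ± 0.47, both in 4 of 4 replicates.

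In the 4 other neighbouring pairs the mean difference was within its SD. WNT3 and WNT5B differed by 0.28 ± 0.77, with WNT3 higher in 2 of 4 replicates. For WNT5B and WNT10B the difference was 0.41 ± 0.91, for WNT10B and WNT6 it was 0.39 ± 0.61, and for WNT5A and WNT3A it was 0.34 ± 0.35 on the log2 scale. WNT5A was nevertheless above WNT3A in 4 of 4 replicates, and with a pseudocount of 0.1 their difference of 1.32 ± 1.20 exceeded its SD. Without replicate 1, WNT5B was below WNT10B by a log2 difference of -0.021, and the places of these 2 genes in the order were exchanged, while the other 8 genes kept theirs. The exact permutation test that flips the sign of each replicate's difference, two-sided, cannot give a p below 0.125 with 4 replicates, and its adjusted p ran from 0.225 to 0.625 over the 9 pairs. The p was 0.125 wherever all 4 differences had one sign, whatever their spread. These p-values therefore do not measure the spread between replicates. They do not test the order either, which came from the same values.

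The pairs of close paralogs differed in size and in direction. WNT10A was far above WNT10B, WNT3A and WNT5A were the minor partners of their pairs, and WNT7A and WNT7B were within a factor of 3 of each other. The ratio of WNT10A to WNT10B in reads per kilobase was 277 (95% Clopper-Pearson interval 206 to 382), 51.3 (38.6 to 69.7), 49.5 (37.8 to 66.1) and 115 (85.8 to 157) in the order of the replicates. Replicates 2 and 3 overlapped, and replicates 1 and 4 stood above both. On the log2 scale the difference was 5.93 ± 0.85 (SD, n = 4), in 4 of 4 replicates. These intervals, here and below, cover counting error only.

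The level of WNT7A per kilobase was 1.04 (0.930 to 1.17), 1.62 (1.47 to 1.79), 2.45 (2.21 to 2.71) and 1.22 (1.11 to 1.34) times that of WNT7B in replicates 1 to 4. The interval of replicate 1 included equal levels and those of the other 3 did not. This order rests on the gene length used, since WNT7A has a length of 1714 bases in the files and 4579 bases as the union of its GENCODE exons. With the exon union the mean TPM was 30.1 for WNT7A and 39.6 for WNT7B, and the log2 difference turned to -0.44. The raw counts of WNT7A were below those of WNT7B in replicates 1, 2 and 4, for example 442 against 968 in replicate 1.

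WNT3 exceeded WNT3A in each replicate by 2.19 ± 0.38 on the log2 scale (SD, n = 4). The ratio per kilobase was 208 (37.0 to 8257), 48.3 (13.0 to 404), 70.0 (12.2 to 2799) and 28.2 (11.8 to 87.9) in replicates 1 to 4, from 1 to 5 counts of WNT3A. All 4 intervals overlapped each other, and each overlapped that of WNT10A to WNT10B in the same replicate. WNT5A was below WNT5B by a log2 difference of -1.57 ± 0.17 (SD, n = 4), in 4 of 4 replicates. Its level per kilobase was 0.176 (0.141 to 0.218), 0.0955 (0.0379 to 0.212), 0.0740 (0.0374 to 0.136) and 0.116 (0.0618 to 0.207) times that of WNT5B in replicates 1 to 4. All 4 intervals lay below 1.

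WNT6 and WNT10A are neighbours on chromosome 2, in the same direction and 6300 bases apart in the files, yet WNT6 was far below WNT10A in every replicate. The level of WNT6 per kilobase was 0.00537, 0.00566, 0.00990 and 0.00820 times that of WNT10A in replicates 1 to 4. The log2 difference was -6.32 ± 0.35 (SD, n = 4), in the same direction in 4 of 4 replicates. No other gene of the files overlapped either span, with rows of very long span and rows without a readable position left out. For each of these 5 pairs the same exact permutation test gave p = 0.125, the smallest it allows, and 0.125 after adjustment over the 5.

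**Figure D2:**
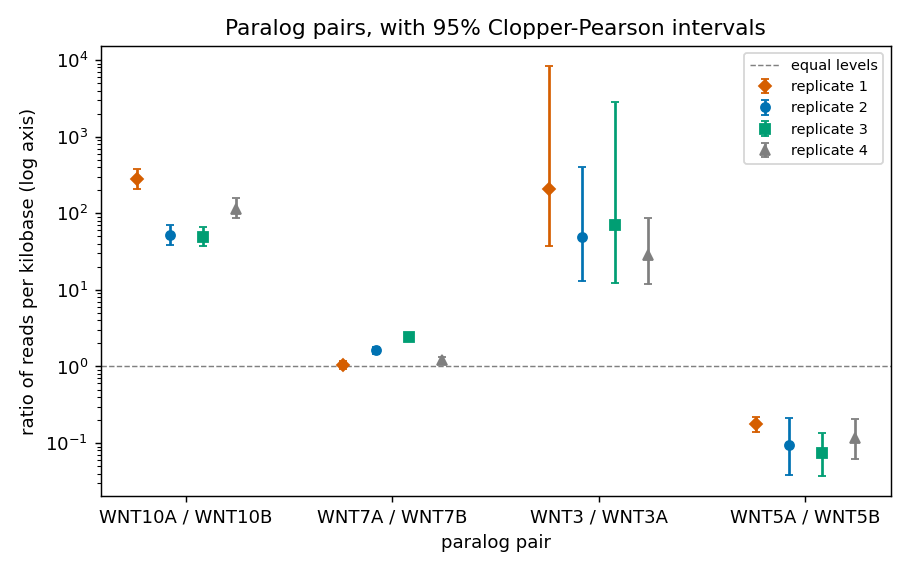
Ratio of reads per kilobase within 4 paralog pairs on a log axis, one marker per replicate with its 95% Clopper-Pearson interval and a dashed line at equal levels. WNT10A to WNT10B lies between 49.5 and 277, WNT7A to WNT7B between 1.04 and 2.45 with the deposited lengths (the mean log2 difference is -0.44 with the exon union), and WNT5A to WNT5B below 1 in every replicate, while the intervals of WNT3 to WNT3A are wide because WNT3A has 1 to 5 counts.

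As a share of the summed TPM of the 10 ligands, WNT10A took most in every replicate. Its share was 82.8%, 56.3%, 58.1% and 69.9% in replicates 1 to 4, with a mean of 66.8% ± 12.3 (SD, n = 4). The share of WNT7A was 4.14%, 21.8%, 24.1% and 11.9%, smallest in replicate 1, where that of WNT10A was largest, and largest in replicates 2 and 3, where that of WNT10A was smallest. With WNT7B, at 3.97%, 13.4%, 9.84% and 9.78%, these 3 genes made up 90.9%, 91.5%, 92.0% and 91.6% of the sum. Within these 10 genes their joint share varied by 0.479 percentage points (SD, n = 4), far less than each of the 3. This is partly fixed because shares of one sum move against each other. The summed TPM was 256, 278, 216 and 427.

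**Figure D3:**
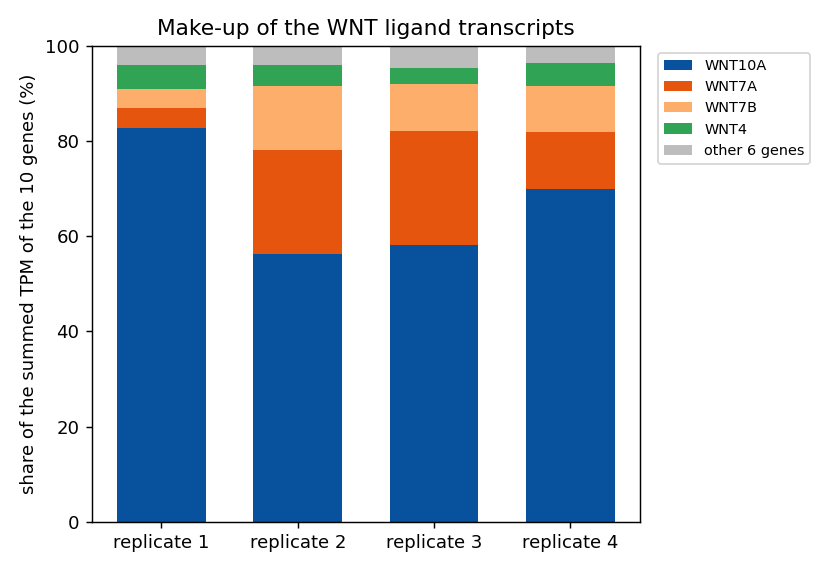
Share of the summed TPM of the 10 ligands in each replicate, stacked to 100%, with WNT3, WNT3A, WNT5A, WNT5B, WNT6 and WNT10B as one grey block. WNT10A fills 56.3% to 82.8%, WNT7A is small in replicate 1, and WNT10A, WNT7A and WNT7B together fill 90.9% to 92.0%.

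Among the 9 other WNT genes, 3 had a mean TPM above 1. WNT9A had 26.0, 31.8, 22.4 and 44.6 TPM, with a mean of 31.2, above that of WNT7B. In replicate 1 it was above both WNT7A and WNT7B, in replicate 2 below both, and in replicates 3 and 4 between them. WNT11 had 64.5 in replicate 1 and 1.04 to 2.26 in the others, and WNT2B had a mean of 1.67. WNT2, WNT8A and WNT9B had 0 counts in all 4 replicates. With all 19 genes in the sum, WNT10A took 60.5%, 49.4%, 52.1% and 62.4%, and WNT11 took 18.4% in replicate 1 and 0.431% to 0.716% in the others.

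The pathway around the ligands was read from 9 lists, which include the 9 other WNT genes above. These lists held 115 genes in all, of which 74 had a mean TPM above 1, against 63.3% of all protein-coding genes. The lists were chosen with earlier results of these data known. All 11 genes of ligand acylation and secretion were detected. PORCN, the acyltransferase that attaches the lipid to the serine shown above, had a TPM of 21.3, 60.2, 51.1 and 67.0, and WLS, the carrier of the acylated ligand, 61.3, 75.9, 59.8 and 85.5. The highest genes of this list were TMED2 with a mean TPM of 212, VPS35 with 135, SNX3 with 127 and TMED9 with 115, which move cargo or recycle WLS.

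Of the 10 Frizzled receptors, 8 were detected. FZD6, known from hair follicle polarity and nails, was the highest at 161, 52.0, 35.4 and 45.5 TPM, followed by FZD2 with a mean of 15.5, FZD7 with 10.8 and FZD5 with 7.18 to 12.6 over the replicates. FZD6 was highest in replicate 1, and FZD2 was lowest there, at 2.48 against 14.9 to 26.2. Of the co-receptors and other receptors, 7 of the 10 with a row were detected. PTK7, a pseudokinase of the polarity branch, had a mean TPM of 112, RYK of 72.5, LRP5 of 54.4 and LRP6 of 8.20. MUSK and TSPAN12 had at most 3 counts in any replicate.

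In the R-spondin module, which sets how many Frizzled receptors stay at the surface, 4 of 9 genes were detected. These were the receptor LGR4 with a mean TPM of 53.4, LGR6 with 6.98, and the ubiquitin ligases ZNRF3 with 8.62 and RNF43 with 6.34. The secreted RSPO1, RSPO2, RSPO3 and RSPO4 and the stem cell receptor LGR5 had at most 3 counts in any replicate.

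Of 19 extracellular inhibitors, 7 were detected. DKK1, which binds LRP5 and LRP6, was the highest, with a TPM of 75.1, 392, 235 and 129 and a mean of 208, near that of WNT10A. DKK1 was highest in replicates 2 and 3, those in which WNT10A was lowest. DKK3 had a mean TPM of 73.3, KREMEN1, a receptor for DKK1, of 28.7 and IGFBP4 of 20.4. DKK2, DKK4, SFRP2, SFRP4, SFRP5, FRZB, WIF1 and CER1 had at most 3 counts in any replicate.

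**Figure D4:**
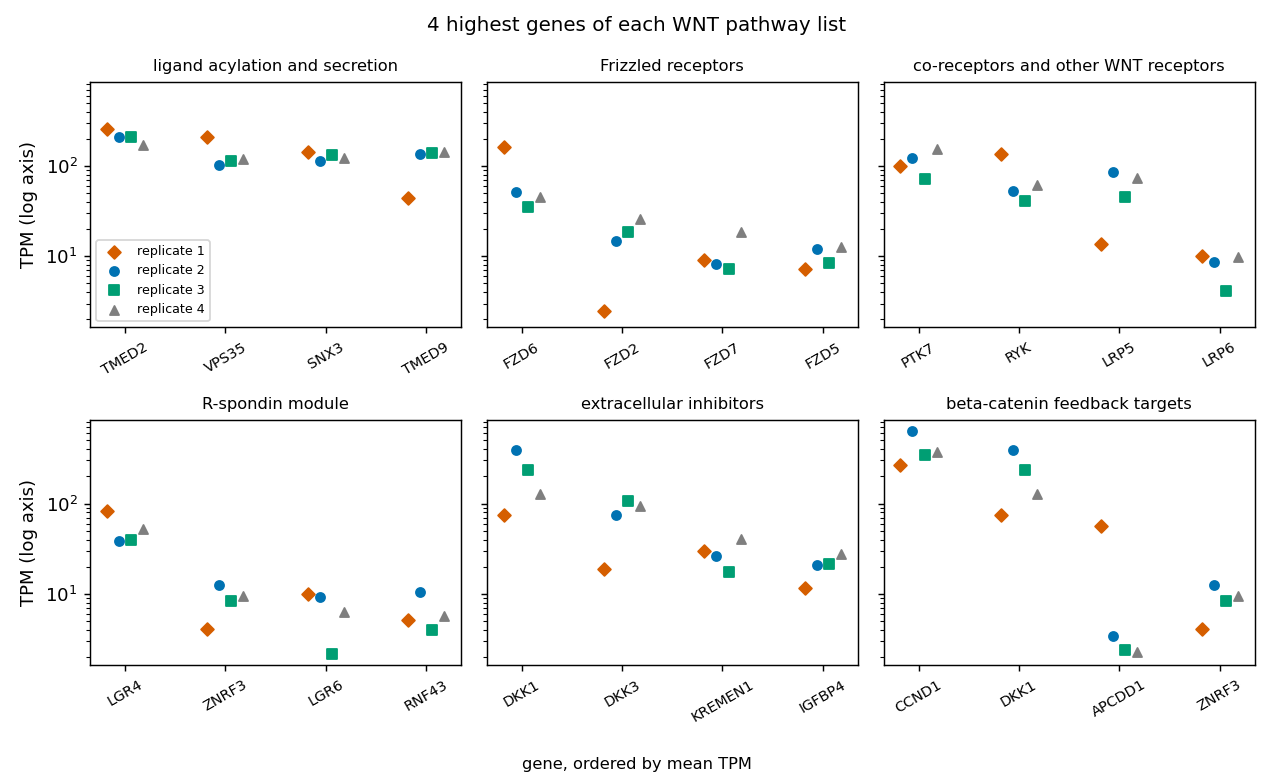
TPM of the 4 genes with the highest mean in each of 6 pathway lists on a shared log axis, one marker per replicate. FZD6 lies above the other Frizzled receptors in every replicate, DKK1 lies between 75.1 and 392, and APCDD1 reaches 56.6 in replicate 1 while its other markers lie from 2.31 to 3.41.

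All 21 genes of the beta-catenin destruction complex and its transducers were detected, led by CSNK1A1, a kinase that primes beta-catenin, with a mean TPM of 223, CTNNB1, which encodes beta-catenin, with 155, DVL1 with 102 and BCL9L with 101. Of the 14 feedback targets of beta-catenin 6 were detected. CCND1, which encodes cyclin D1 and answers to many signals, had a mean TPM of 406, and DKK1 is also in this list. The other detected targets were APCDD1 with a mean TPM of 16.2 (2.70 without replicate 1), ZNRF3 with 8.62, RNF43 with 6.34 and SP5 with 2.55. AXIN2, the target most used as a readout of the beta-catenin branch, had 55, 2, 1 and 0 counts and LEF1 had 5, 2, 2 and 2; both were named after their values were seen. NKD2 and LGR5 had at most 3 counts in any replicate. Activity of the beta-catenin branch was not tested. Of the 18 genes of the polarity and calcium branches 11 were detected, with CAMK2G at a mean TPM of 46.2, CELSR2 at 41.9, DAAM1 at 39.4 and CELSR1 at 36.5.

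Genes whose values were closest to those of a ligand were found by the root mean square difference of log2(TPM + 1) over the 4 replicates. The values were not centred, so a small difference needs a like level and is not a measure of pattern alone. For WNT10A the 3 nearest protein-coding genes were NFE2L1 at 0.21, SND1 at 0.22 and MVP at 0.24. NFE2L1 had a TPM of 231, 204, 137 and 288, so that it shared the order of the replicates with WNT10A. Among the genes of the pathway lists the nearest to WNT10A was CSNK1A1 at 0.55, the nearest to WNT7A was GSK3A at 0.33 and the nearest to WNT7B was TLE3 at 0.33. CSNK1A1 had a TPM of 248, 266, 177 and 198, highest in replicate 2, whereas WNT10A was highest in replicate 4. GSK3A, with 8.46, 41.1, 58.9 and 47.8 TPM, was low in replicate 1 as WNT7A was. For the remaining ligands the nearest were INVS for WNT4, TCF7L2 for WNT3, CAMK2D for WNT5B, SP5 for WNT10B and RECK for WNT6, at 0.26 to 0.49. This measure is a description over 4 libraries. A shared order or a shared low replicate follows in part from choosing genes with close values.

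Replicate 1 was outside the range of the other replicates for 4 of the 8 detected ligands. It was below them for WNT7A, WNT7B and WNT10B, 3 of 8 against 37.4% of detected protein-coding genes, and above them for WNT5B, 1 of 8 against 40.2%. Both shares are near or below that background, and so the ligands give no result of their own here. With TPM over all rows, which counts the noncoding reads of replicate 1 too, replicate 1 was below the others for 8 of 8 ligands, against 81.7% of genes detected on that scale, and above for 0, against 3.75%. Without replicate 4 it was below replicates 2 and 3 for 3 of 8, against 40.3%, and above them for 3, against 44.9%. Replicate 4 was the highest for 5 of 8, namely WNT3, WNT4, WNT6, WNT7B and WNT10A, against 23.3% of detected genes, a count made after the values were seen.

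Other values moved with the replicates and are given beside the ligands; their part in the levels was not tested. The GC content of the transcript ran from 42.3% in WNT5A to 70.5% in WNT6. Over 11889 detected genes the log2 ratio of replicate 1 to the other replicates fell with GC, with a Spearman rho of -0.51 across genes, which share the same libraries. Over the 10 ligands rho was -0.05, with WNT7A at a GC of 55.3% and a log2 ratio of -2.26 and WNT10A at 65.4% and 0.13. A list of 16 interferon-induced genes had a median TPM of 11.5, 250, 244 and 14.8 in replicates 1 to 4, high in replicates 2 and 3. In those replicates WNT10A had its lowest values, 156 and 126, as did WNT4 and WNT5A. WNT7A had its highest values there, 60.6 and 52.0. The remaining ligands followed neither order, so the ligands had no common pattern with this list.

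**Figure D5:**
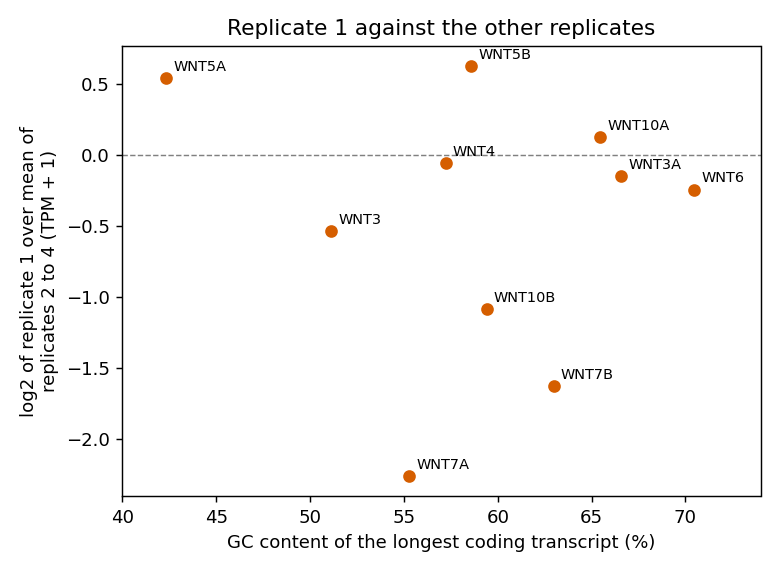
Log2 ratio of replicate 1 to the mean of replicates 2 to 4, on TPM + 1, against the GC content of the longest coding transcript of each ligand, with a dashed line at equal levels. WNT7A at -2.26 and WNT7B at -1.62 lie lowest at a GC of 55.3% and 63.0%, and WNT6, with the highest GC of 70.5%, lies at -0.24.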

How the data were processed

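RNA-seq of 4 biological replicates of untreated HaCaT cells was analysed. The authors deposited whole-number counts per gene with a gene length for all 4 replicates, RPKM for replicates 1 and 2, and TPM for replicates 3 and 4. The deposited RPKM and TPM equalled those computed from counts and lengths over all 44591 rows, within rounding, and served only for that check. Positions are those of hg19, which the submitters' processing notes name together with HISAT2, TopHat2, Bowtie2 and HISAT, without versions or roles. The counting program, annotation, strand setting and selection of RNA are not given in the sources used here. The serum share is that of the labels and differs from the study's methods.

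TPM was recomputed over 19233 protein-coding rows, so that noncoding reads do not scale the ligands. Total counts ranged from 17056035 to 73082279, and 3 counts were taken as the floor. Within each replicate the difference of log2(TPM + 1) between a pair of genes was taken, and an exact permutation test flipped its sign over the replicates (two-sided, Benjamini-Hochberg over 9 neighbouring or 5 fixed pairs). Ratios of counts per kilobase have 95% Clopper-Pearson intervals. These cover counting error only, because they treat each read of a library as an independent draw. Reads were not marked by molecule, so the intervals may be too narrow even for that. Each replicate was left out in turn; other alternatives were TPM over all rows, median-of-ratios size factors, library-scaled counts without length, the union of GENCODE exons as length (found for 97.1% of protein-coding genes), a pseudocount of 0.1, and detection at a mean TPM of 0.1 or any count.

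The ligands and all lists were chosen with earlier results of these data known. Named were all 10 ligands, up to 4 genes of each list with the highest mean TPM, genes at 3 or fewer counts in all replicates, the 3 genes nearest to the highest ligand and, for each detected ligand, the nearest gene of the lists. PORCN and WLS were named by role. The symbol GPR124 had no row; ADGRA2, its newer name, was used. Coding bases and GC content came from GENCODE release 29 (GRCh38) and promoters from RefSeq (GRCh38.p14). The software was matplotlib 3.10.9, SciPy 1.17.1, pandas 2.3.3 and NumPy 2.4.6 under Python 3.11.15.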

Additional observations from a re-analysis of the deposited data

Results flagged for a closer look

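The 47 sets of 4 values covered the ligands, the 4 highest genes of each pathway list and AXIN2. They also held the share of WNT10A and the summed TPM of the 10 ligands, which rest on the ligand sets. Of the 47 sets, 6 had a lowest or highest replicate that stood apart from the rest by more than Dixon's critical share of the range. About 1 in 20 such sets does so by chance. The sets come from the same libraries, AXIN2 was added after its values were seen, and APCDD1 is among the 4 highest of its list through replicate 1, with a mean of 2.70 without it, so the number of such sets is not set against chance. All 6 were in replicate 1, and 0 were among the 10 ligands. WNT11, a ligand outside the 10, reached a TPM of 64.5 there and 1.04 to 2.26 elsewhere. The membrane inhibitor APCDD1 had 56.6 against 2.31 to 3.41, and FZD6 had 161 against 35.4 to 52.0. VPS35, a subunit of the retromer, had 206 against 102 to 118. TMED9, a cargo receptor, was the one set with a low value, 44.3 against 136 to 143. For AXIN2 the TPM was 0.535 against 0 to 0.0711. These values stand as measured, and what set replicate 1 apart was not tested.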

How the results depend on the processing

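WNT10A was the highest ligand in 100% of the replicates under every alternative run, and its share of the summed level ran from 63.4% (library-scaled counts without length) to 69.8% (exon union), and from 61.5% to 70.3% with a replicate left out. Detected ligands numbered 8 to 10 over all alternatives. Leaving out a replicate gave 8 detected ligands each time and 73 to 77 detected pathway genes. All 5 fixed pairs kept one order in every replicate with a replicate left out. Only 4 did so without length correction, and 4 with the exon union. Neighbouring pairs whose mean difference exceeded its SD numbered 4 to 7 with a replicate left out. That last count was 3 with the exon union and 5 to 6 under the other alternatives. The neighbouring pairs in one order in every replicate, counted after seeing the data, numbered 5, with 3 without length correction and 4 with the exon union. The count of ligands with replicate 1 above the others was 1 and became 0 with TPM over all rows, 2 without length correction and 1 to 3 with a replicate left out. The count below was 3 and became 8 with TPM over all rows, since noncoding rows then scale the sum, and 3 to 4 with a replicate left out. The difference of WNT7A and WNT7B turned to -0.58 without length correction and to -0.44 with the exon union, and that of WNT5B and WNT10B to -0.13 with the exon union. With a replicate left out the latter ran from -0.021 (without replicate 1) to 0.69, and the cause was not tested. Median-of-ratios size factors moved the count below from 3 to 4 and changed no other count, rank or direction. The exon union raised the mean TPM of WNT6 to 2.63, WNT10B to 3.73, WNT4 to 21.2, WNT5A to 0.607 and WNT3A to 0.179, and TPM over all rows lowered WNT5A to 0.238. Samples could not be paired between groups because there is 1 group, and the tests paired genes within a replicate. Counts under 20 limit WNT6, WNT5A and WNT3A in some replicates, and 4 replicates limit every p to 0.125 or more.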
